A study of Saccharomyces cerevisiae with 4 samples.

Results

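A set of 9 genes was followed across the 4 strains because their signal was far above wild type on the array of the ubp10 null: RTC3, STP4, TPO4, CIP1, RGI1, EGO4, ROQ1, MGA1 and YRO2. They are 9 of 5656 measured genes, none of them a chaperone gene, and were picked for that rise, so their levels on the ubp10 null array are a description and support no test. The yeast strains were a ubp10 null, a ubp10 sir4 double null, a sir4 null and the wild type W303-1A, a haploid laboratory strain, all taken as exponentially growing cells. Total RNA of each strain was hybridised to 1 Affymetrix Yeast Genome S98 array, a short-oligonucleotide array on which several probe pairs form the probe set of a gene. The sources used here do not state whether each mutant is a single clone or which marker replaced the deleted genes. Since each strain was measured once, no value carries an error between replicates and no test between strains was possible.

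UBP10 encodes a deubiquitinating enzyme that acts on histone H2B, and SIR4 encodes a subunit of the silencing complex of telomeres and the silent mating cassettes. The 9 genes are scattered over cell functions. STP4 and MGA1 encode DNA-binding proteins, CIP1 an inhibitor of the cyclin-dependent kinase, ROQ1 a small regulator of protein degradation, EGO4 a small relative of a subunit of the EGO complex at the vacuole, RTC3 a small protein linked to RNA metabolism, RGI1 a protein of energy metabolism, and TPO4 and YRO2 membrane proteins. In budding yeast many genes of this kind are induced by heat, by weak acids or on leaving rapid growth, largely through the stress factors Msn2, Msn4 and Hsf1, while Haa1 is the factor of the weak-acid response.

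The targeted gene UBP10 read 5.7 units in the ubp10 null and 4.0 in the labelled double null, against 269.2 on the sir4-labelled array and 247.9 in the wild type. SIR4 read 4.9, 15.5, 20.7 and 10.8 units in the ubp10 null, the labelled double null, the sir4-labelled array and the wild type. It was thus higher than wild type, not lower, on the arrays labelled as lacking it. Its wild-type signal was under the 13.3 units set below for a call, so a loss could not have been called. The sir4 genotype of both arrays therefore rests on the labels, and they are called the sir4-labelled array and the labelled double null. On the sir4-labelled array the 3′ probe set of ACT1, the actin gene, was 86.9-fold brighter than the 5′ probe set, against 1.12-fold in the ubp10 null, 1.46-fold in the labelled double null and 1.55-fold in the wild type. A control gene of the same kind, YER148W, read 29.2 units at its 5′ and 545.7 at its 3′ probe set on that array. These values were 207.6 and 301.4 in the ubp10 null, 214.1 and 427.5 in the labelled double null, and 184.3 and 388.6 in the wild type. The 5′ signal of both genes was thus low on the sir4-labelled array, and the part of such a loss in the values given below was not tested.

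Values are deposited intensities in array units. The noise SD, from the negative values, was 2.22 units, and values under a floor of 6.67 units, which is 3 noise SDs, were raised to the floor before a ratio was taken. A gene was called when the ratio was at least 2 and the brighter value at least 13.3 units, and a ratio against the floor is written as at least N-fold. Over the genes that exceeded the floor on both arrays of a pair, the median log2 ratio was -0.04 for ubp10 null over wild type, -0.46 for ubp10 null over the sir4-labelled array, 0.54 for labelled double null over wild type, 0.50 for labelled double null over ubp10 null, 0.01 for labelled double null over the sir4-labelled array and 0.49 for the sir4-labelled array over wild type. Folds are given relative to that median in the 4 comparisons where it was beyond 0.1 in size, while calls use the values as deposited. Each of the 9 genes had 1 probe set, so none has a second reading on the same array. Among 222 genes with several probe sets above the floor, the ratio of ubp10 null to wild type differed between probe sets by 1.97-fold in the median gene and by up to 4.14-fold in 90% of genes. Comparisons with the sir4-labelled array had a wider spread. These 2 measures were 3.17- and 18.6-fold for ubp10 null over that array and 2.26- and 9.68-fold for that array over wild type. For labelled double null they were 2.25- and 8.66-fold over that array, 1.45- and 2.84-fold over wild type, and 2.03- and 6.57-fold over ubp10 null.

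The working name of the group, genes raised only in the ubp10 null, held in part. All 9 were at least 2-fold higher on the ubp10 null array than on each of the other 3 arrays, a pattern that 3.43% of all genes showed. Against wild type, however, TPO4, EGO4 and RGI1 were also called higher in both the labelled double null and the sir4-labelled array, and STP4 in the labelled double null. RTC3, ROQ1, MGA1 and YRO2 had no call against wild type on either of those arrays, and CIP1 was lower than wild type on the sir4-labelled array. The number above the floor was 9 of 9 in the ubp10 null, 7 in the labelled double null, 6 on the sir4-labelled array and 4 in the wild type. Because these are cultures, more RNA per cell and a larger share of cells that express a gene cannot be told apart.

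**Figure D1:**
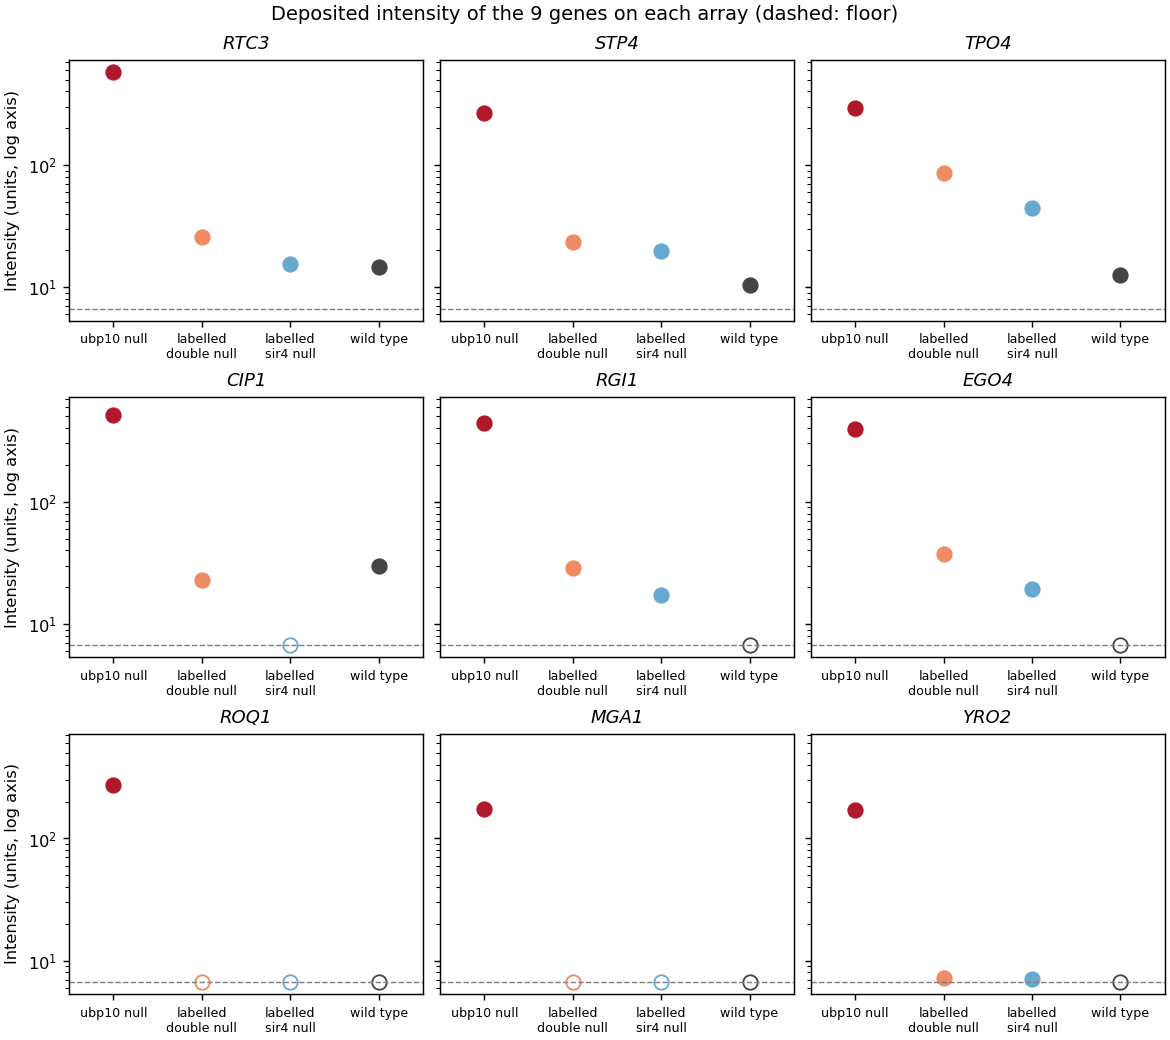
Deposited intensity of each of the 9 genes, 1 panel per gene, on the arrays of the ubp10 null, the labelled double null, the sir4-labelled array and the wild type. The vertical axis is a log axis in array units, each point is 1 array, the dashed line is the floor of 6.67 units, and open circles are values under it drawn at the floor. The ubp10 null point is the highest in all 9 panels, and TPO4 has the smallest gap to the next array.

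The DNA-binding proteins differed in how far their signal fell on the other arrays. MGA1, which carries a DNA-binding domain of the heat shock factor type and is linked to filamentous growth, read 173.5 units in the ubp10 null, 0.7 in the labelled double null, 2.4 on the sir4-labelled array and 2.1 in the wild type. It was above the floor in the ubp10 null alone, at least 26.0-fold over wild type. STP4, a zinc-finger protein of the family of the amino acid sensing factors Stp1 and Stp2, read 265.2 units in the ubp10 null, 23.6 in the labelled double null, 19.9 on the sir4-labelled array and 10.4 in the wild type. Its labelled double null value was 15.9-fold lower than that of the ubp10 null, and 1.56-fold higher than wild type (2.27-fold as deposited, where it was called).

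Regulators of the cell cycle, of protein degradation and of nutrient signalling were next. CIP1, which inhibits the cyclin-dependent kinase under stress, read 509.6 units in the ubp10 null, 23.0 in the labelled double null, 5.9 on the sir4-labelled array and 29.6 in the wild type. Among values above the floor it was the only one of the 9 whose labelled double null signal was below wild type, by 1.29-fold as deposited, which was not called. The sir4-labelled array was at least 6.25-fold below wild type (4.44-fold as deposited). ROQ1 encodes a hydrophilin that, once cleaved, binds the ubiquitin ligase Ubr1 and redirects it to misfolded proteins. It read 272.8 units in the ubp10 null, 0.9 in the labelled double null, 3.8 on the sir4-labelled array and 6.5 in the wild type, so that it too was above the floor in the ubp10 null alone. EGO4, a paralog of the EGO complex subunit gene EGO2, read 393.8 units in the ubp10 null, 37.2 in the labelled double null, 19.3 on the sir4-labelled array and 6.4 in the wild type. The labelled double null was 15.0-fold below the ubp10 null for EGO4 and at least 3.83-fold above wild type.

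RTC3 and RGI1 had similar profiles except in the wild type. RTC3, whose product resembles part of the ribosome maturation factor Sdo1, read 578.3 units in the ubp10 null, 25.7 in the labelled double null, 15.6 on the sir4-labelled array and 14.5 in the wild type. The last 2 values differed by less than the noise SD. RGI1, named for its induction in respiratory growth, read 444.7 units in the ubp10 null, 28.5 in the labelled double null, 17.3 on the sir4-labelled array and 5.9 in the wild type. Relative to the median ratio it was at least 2.93-fold higher in the labelled double null and at least 1.84-fold higher on the sir4-labelled array than in the wild type.

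The membrane proteins differed in how much signal was left on the other arrays. TPO4, a polyamine exporter of the plasma membrane, read 295.6 units in the ubp10 null, 86.0 in the labelled double null, 44.7 on the sir4-labelled array and 12.7 in the wild type. It stood 4.65-fold over wild type in the labelled double null and 2.50-fold on the sir4-labelled array, and the labelled double null was 4.86-fold below the ubp10 null. YRO2, a plasma membrane protein related to Mrh1 and the heat shock protein Hsp30, read 170.2 units in the ubp10 null, 7.2 in the labelled double null, 7.1 on the sir4-labelled array and 4.7 in the wild type. The 3 lower values of YRO2 lay near the floor and spanned little more than 1 noise SD.

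**Figure D2:**
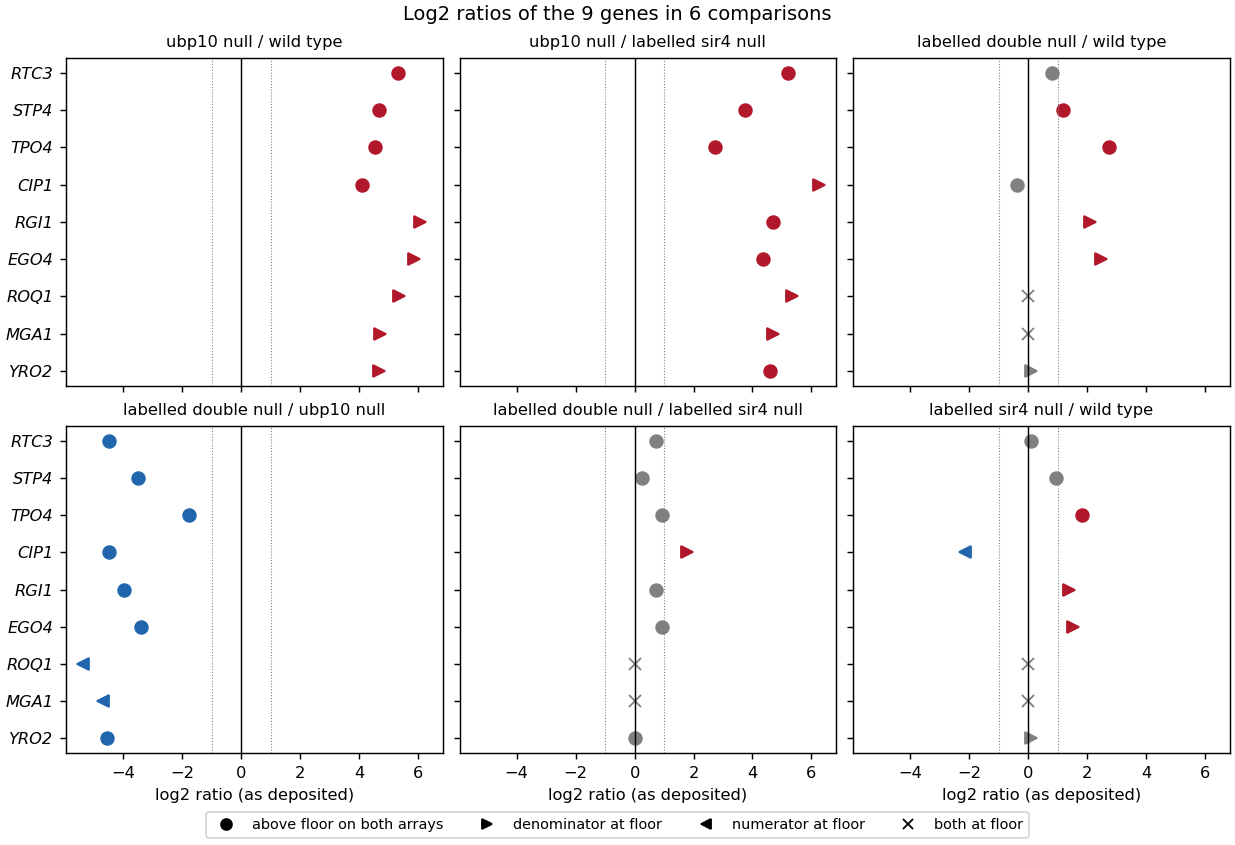
Log2 ratios of the 9 genes as deposited in 6 comparisons, 1 panel each. Circles are ratios measured above the floor on both arrays, triangles are bounds that point to where the true ratio can lie, crosses have both arrays at the floor, red and blue are called higher and lower, grey is not called, and dotted lines mark a ratio of 2. All 9 genes are right of the upper line in the 2 panels with the ubp10 null as numerator, and left of the lower line for labelled double null over ubp10 null.

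Counted by comparison, the 9 genes were called as follows. In the ubp10 null against wild type 9 of 9 were higher, where 9.44% of all genes were, with a median log2 ratio of 4.70 against 0.00 over all genes, and 0 were lower, where 8.42% were; that contrast chose the genes, and nothing is read from it. Against the sir4-labelled array 9 of 9 were higher in the ubp10 null, with 10.1% of all genes higher and 28.6% lower (17.2% and 16.4% with the median ratio centred). The labelled double null set against the ubp10 null had 9 of 9 lower, with 6.26% of all genes lower and 28.3% higher (13.2% and 13.4% centred). These comparisons share the ubp10 null array that chose the genes, so they add no independent support.

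The comparisons without that array gave few calls. In the labelled double null against wild type 4 of 9 were higher and 0 lower, where 18.6% of all genes were higher and 2.07% lower, and with the median ratio centred 3 of 9 were higher (4.3% of all genes, with 6.63% lower). On the sir4-labelled array against wild type 3 of 9 were higher, with 19.8% of all genes, and 1 was lower, with 4.47%. With the median ratio centred 2 of 9 were higher there (6.03% of all genes) and 1 was lower (9.65%). In the labelled double null against the sir4-labelled array CIP1 was called, at least 3.45-fold higher, which is 1 of 9 where 7.94% of all genes were higher. The members' median log2 ratio was 0.83 in the labelled double null and 0.11 on the sir4-labelled array, both over wild type, against 0.47 and 0.41 over all genes.

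Set against all 5656 genes by the ratio of the ubp10 null to the highest of the other arrays, the group lay at the upper end. ROQ1 was at least 40.9-fold and MGA1 at least 26.0-fold above the next array. Among those measured on both sides, YRO2 was 23.6-fold, RTC3 22.5-fold, CIP1 17.2-fold, RGI1 15.6-fold, STP4 11.2-fold and EGO4 10.6-fold above the next array. TPO4 had a 3.44-fold excess, and 61 genes outside the group exceeded it. Only 6 genes outside the group exceeded EGO4: HSP30, SSA4, FMP48, SPI1 and the tRNA genes YNCL0044W and YNCE0012W. The choice of members thus left out genes with the same pattern.

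**Figure D3:**
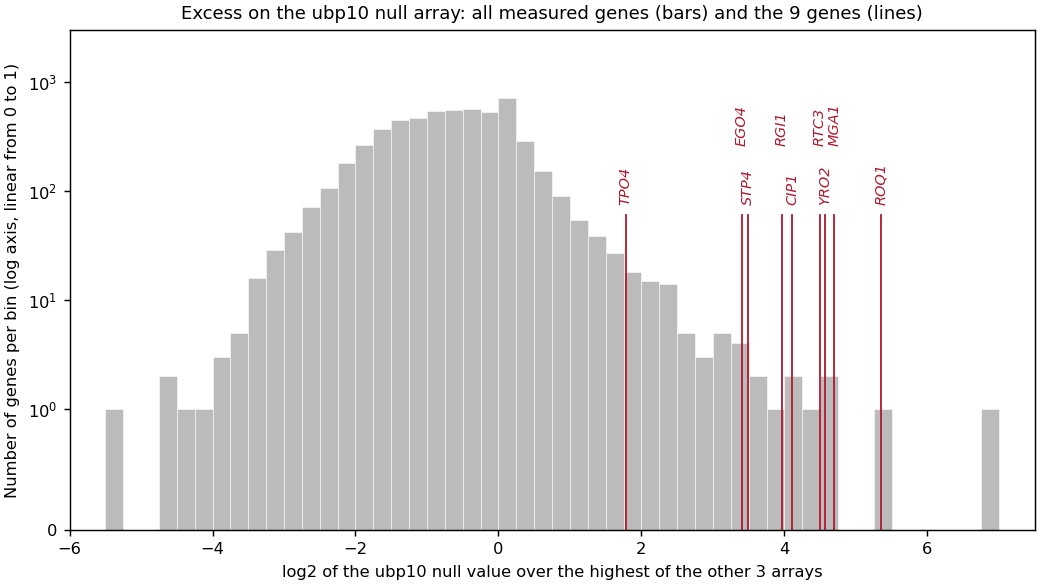
Number of genes by the log2 ratio of their ubp10 null value to the highest of the other 3 arrays, in bins of 0.25, with lines at the 9 genes. The vertical axis is logarithmic above 1. All lines but that of TPO4 lie in the sparse upper end, and TPO4, at 1.78, lies among more genes.

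Ribosomal and transfer RNA signals also moved with the ubp10 null array. Of 10 ribosomal RNA control probe sets 5 were above the floor in the ubp10 null, against 1 on each of the other 3 arrays. Of 91 tRNA genes 63 were above the floor in the ubp10 null, 25 in the labelled double null, 32 on the sir4-labelled array and 47 in the wild type, and 23 of the 91 were highest in the ubp10 null by at least 2-fold. Their part in the rise of the 9 genes was not tested. The median of 9 spike-in probe sets, bacterial and phage control sequences, was 255.4 units in the ubp10 null, 62.1 in the labelled double null, 106.8 on the sir4-labelled array and 209.6 in the wild type. Relative to the spike-ins, a scale chosen after seeing the data, the excess of the ubp10 null over wild type stayed between log2 ratios of 3.85 (CIP1) and 5.81 (RGI1, a bound). On the same scale TPO4 was no longer lower for labelled double null over ubp10 null, with a log2 ratio of 0.29.

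**Figure D4:**
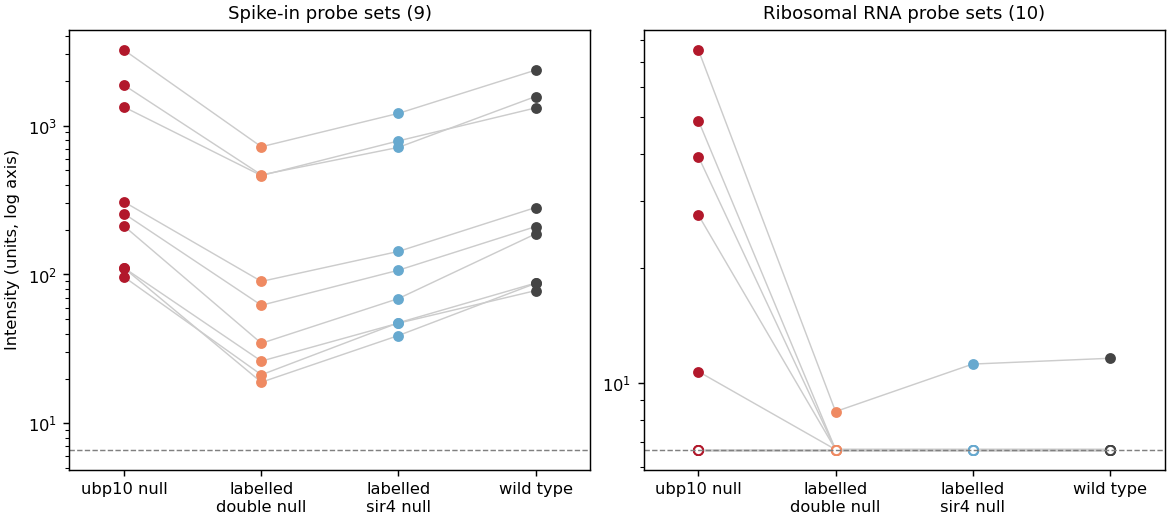
Intensity of the 9 spike-in probe sets (left) and the 10 ribosomal RNA probe sets (right) on the 4 arrays, on log axes in array units with different ranges. Each point is a probe set on 1 array, grey lines join a probe set across arrays, the dashed line is the floor of 6.67 units, and open circles are values under it. Spike-ins are brightest in the ubp10 null and dimmest in the labelled double null, and 5 ribosomal RNA probe sets exceed the floor in the ubp10 null.

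Paralogs and partners of the 9 genes were counted as a fixed list. Of 30 such genes 29 were measured; EGO2 was not analysed here, since the annotation table used names no probe set for it. In the ubp10 null against wild type 4 of the 29 were higher (TPO2, SIC1, STF2 and HSP30; 9.44% of all genes) and 1 was lower (NMA111; 8.42% of all genes). HSP30 and STF2 were highest in the ubp10 null by at least 2-fold over every other array, as were 3.43% of all genes. HSP30, the relative of YRO2, read 1535.5 units in the ubp10 null, 12.9 in the labelled double null, 9.2 on the sir4-labelled array and 5.2 in the wild type. The closer YRO2 paralog MRH1 read 1217.7, 682.3, 685.9 and 1057.8 units on the same arrays in that order, and was 1.15-fold higher in the ubp10 null than in wild type, which was not called. STF2, a hydrophilin gene like ROQ1, read 503.3 units in the ubp10 null, 144.3 in the labelled double null, 97.9 on the sir4-labelled array and 53.4 in the wild type.

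RGI2, the paralog of RGI1, was under the floor on all 4 arrays, with 2.9 units at most, and so were the polyamine exporter gene TPO3 and the hydrophilin gene SIP18. TPO2, another polyamine exporter gene, read 317.6 units in the ubp10 null, 98.2 in the labelled double null, 171.3 on the sir4-labelled array and 36.8 in the wild type. Its labelled double null value lay below that of the sir4-labelled array, the reverse of TPO4, though neither difference was called. STP1, STP2 and STP3 had no call in the ubp10 null against wild type, and STP3, the closest relative of STP4, read 115.4 units in the ubp10 null and 131.1 in the wild type. The kinase inhibitor gene SIC1 was 2.57-fold higher in the ubp10 null than in wild type (141.9 against 55.2 units). FAR1, a kinase inhibitor gene that acts in the mating response, read 76.5 units in the ubp10 null, 174.5 on the sir4-labelled array and 118.9 in the wild type. It was under the floor, at 2.3 units, in the labelled double null alone.

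Among partners of the encoded proteins the ubp10 null gave 1 call against wild type, that of NMA111. NMA111, which encodes the protease that cleaves Roq1, was 2.13-fold lower in the ubp10 null (79.2 units, against 168.8 in the wild type), and UBR1, the ligase gene, read 67.2 units in the ubp10 null and 75.6 in the wild type. Of the 5 measured genes of the EGO complex, its Rag GTPases and the Rag regulator Vam6, 0 were called in the ubp10 null against wild type, and GTR2 read 15.3 units in the ubp10 null and 26.7 in the wild type. The heat shock factor relatives of MGA1 had 0 calls of 4 in that comparison, with HSF1 at 69.8 units in the ubp10 null and 51.6 in the wild type. SDO1, the relative of RTC3, read 32.9 units in the ubp10 null and 42.6 in the wild type.

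**Figure D5:**
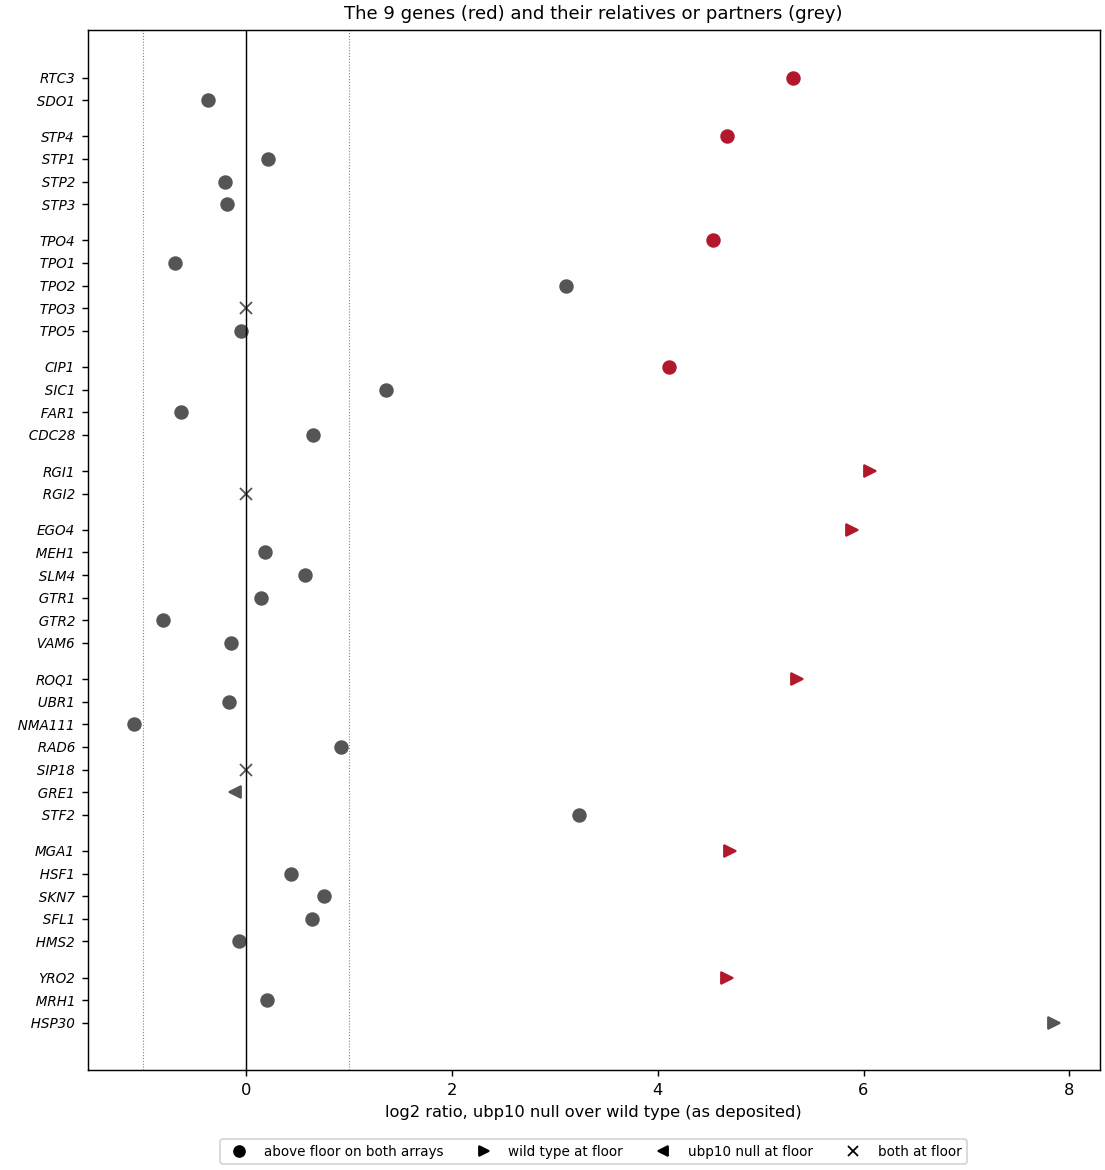
Log2 ratio of the ubp10 null to wild type, as deposited, for the 9 genes (red) and, below each, its relatives or partners (grey). Circles are measured on both arrays, triangles are bounds with 1 array at the floor, crosses have both arrays at the floor, and dotted lines mark a ratio of 2. TPO2, SIC1, STF2 and HSP30 are the grey points right of the upper line.

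Stress genes were compared as the groups most like these 9. Of 27 general stress genes 22 were higher in the ubp10 null than in wild type, with a median log2 ratio of 2.29, and 9 were highest in the ubp10 null by at least 2-fold over each other array, where the shares of all genes were 9.44% and 3.43%. Of 24 genes of chaperones and other heat shock proteins 12 were higher than wild type and 7 were highest in the ubp10 null by that measure. Both are to be read against the same shares. HSP30, the relative of YRO2 counted above, is on this list too, and is not itself taken as a chaperone gene. The general stress genes were also called in the labelled double null against wild type, where as deposited 20 of 27 were higher and 1 was lower (18.6% and 2.07% of all genes), against 4 and 0 of the 9. With the median ratio centred, 3 of the 9 were higher, with 4.3% of all genes. With that centring HSP12, TSL1, GSY1, GLC3, PGM2, HXK1, GLK1, SOL4, MSC1 and YGP1 of the 27 stress genes stayed higher, and DDR48 stayed lower. The rest of the 27, SPI1, GAD1 and GPH1 among them, were not called on that scale. These shares were not tested against each other, since the 9 were chosen for their level on the ubp10 null array. The leading examples among stress genes were SPI1, GAD1, GPH1 and DDR2, at 11.0-, 6.90-, 5.21- and 4.87-fold over the next array. On the list of chaperones and other heat shock proteins they were HSP30, SSA4, BTN2 and HSP42, at 119.0-, 17.4-, 6.77- and 6.33-fold.

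Transcripts of 11 stress regulators were examined next, of which 4 were higher in the ubp10 null than in wild type and 0 lower, with 9.44% and 8.42% of all genes. HAA1 read 127.2 units in the ubp10 null, 55.2 in the labelled double null, 33.9 on the sir4-labelled array and 56.4 in the wild type, and was 2.26-fold higher in the ubp10 null than in wild type. MSN4, GIS1 and YAK1 were also called, 2.85-, 2.20- and 2.20-fold higher in the ubp10 null than in wild type. As deposited, MSN4 and GIS1 read higher still in the labelled double null, and YAK1 on the sir4-labelled array (1.19-fold for GIS1 and 1.11-fold for YAK1). Relative to the median ratio, GIS1 and YAK1 were instead 1.19- and 1.23-fold higher in the ubp10 null than on those arrays. Neither gene was called on either scale. The 3 probe sets of YAK1 disagreed, with 182.8, 180.0 and 12.6 units in the ubp10 null against 158.1, 66.6 and 54.5 on the sir4-labelled array. SKN7 and MSN2 were 1.62- and 1.16-fold above the next array in the ubp10 null, and XBP1 was under the floor on all 4 arrays. Of 11 genes of the Haa1 response, YRO2 and HAA1 among them, 8 were higher in the ubp10 null than in wild type and 0 lower, with the same shares of all genes. Against wild type 5 of the 11 were also higher in the labelled double null, with 18.6% of all genes. On the sir4-labelled array 4 of the 11 were higher than wild type, with 19.8% of all genes. Only 5 of the 11 were highest in the ubp10 null by at least 2-fold over each other array, as were 3.43% of all genes. For labelled double null over ubp10 null 7 of the 11 were lower and 0 higher, with 6.26% and 28.3% of all genes (13.2% and 13.4% centred). YRO2 is among those 7, and its fall was set by the choice of members on the ubp10 null array. After YRO2, the genes of that list with the largest excess were SPI1, PHM8 and HRK1. PHM8 read 94.1 units in the ubp10 null, 18.5 in the labelled double null, 38.4 on the sir4-labelled array and 6.4 in the wild type, and HRK1 read 828.7, 352.1, 345.2 and 229.9 units in the same order.

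The genes whose profile over the 4 arrays was most like the median profile of the 9 were found by the root mean square difference of log2 values, each gene taken about its own mean. SSA4, an inducible Hsp70 gene, was nearest at 0.25 log2 units, followed by the cell wall gene SPI1 at 0.37, FMP48 at 0.52, the glutamate decarboxylase gene GAD1 at 0.56 and the small heat shock gene HSP42 at 0.59. The tRNA genes YNCL0044W and YNCE0012W followed at 0.62 and 0.64, and BTN2 at 0.69. Within the group, RTC3 was nearest to the median at 0.20 and TPO4 and CIP1 farthest, at 1.00 and 0.92, so that all 8 named genes outside the group were closer to its median than those 2 members. FMP48 read 84.8 units in the ubp10 null, 3.3 in the labelled double null, 5.8 on the sir4-labelled array and 0.0 in the wild type, the same pattern as MGA1 and ROQ1. The likeness rests on 4 arrays and is given as a description.

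Genes beside the 9 on the chromosome were called in both directions. Of the 18 nearest measured protein-coding neighbours, taken after seeing the data as 1 on each side, 4 were higher, 3 lower and 11 not called in the ubp10 null against wild type, where 9.44% of all genes were higher and 8.42% lower. Both neighbours of MGA1 were higher: SOL4, a gene of the general stress list, read 78.4 units in the ubp10 null, 47.8 in the labelled double null, 16.3 on the sir4-labelled array and 8.6 in the wild type, and RIE1 read 417.5, 85.4, 80.0 and 52.8 units in the same order. RIE1 was the 1 neighbour that was highest in the ubp10 null by at least 2-fold over each other array. RRT13, beside RGI1, and SFH5, beside ROQ1, were the other neighbours called higher, while MOT2 and TIM17 on the opposite sides of those genes were lower.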

How the data were processed

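The 4 arrays were summarised by the authors with MAS 4.0, per the labels, and deposited as 1 intensity per probe set, which is linear and can be below 0 (7.42% to 9.36% of values). No source used here states a global scaling; the mean between percentiles 2 and 98 was 100.0 on each array, so the values were left as they are. Of 9335 probe sets 60 were controls. Probe sets were named by the platform's annotation table, with symbols renewed by gene identifier. Of these, 6504 probe sets had 1 gene, all matched, and they gave 5656 genes. The 328 probe sets with several genes were left out of the gene values. Log2 values of a gene's probe sets were averaged after flooring. The arrays' number limits the precision.

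The 9 members and all gene lists were chosen with earlier results of these data known. Named genes were the members, their relatives, up to 4 genes per stress list with the largest excess in the ubp10 null, the 8 most alike in profile, and checks of the labels and RNA. The neighbours, and further genes of the stress lists named for their calls, were added after their values were seen. Alternatives were quantile normalization and cyclic loess (limma 3.58.1 in R 4.3.3), centring on the median ratio, other floors, ratios and brightness minimums, and the brightest probe set; 2 more, centring on spike-ins and omitting the sir4-labelled array, were chosen after the data had been seen. Python 3.11.15, numpy 2.4.6 and pandas 2.3.3 were used. A promoter motif search was not run and no sequence was used here.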

Additional observations from a re-analysis of the deposited data

Results flagged for a closer look

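For 3 of the 9 genes the sir4-labelled array was higher than wild type, and the labelled double null was lower than the ubp10 null. On the sir4-labelled array over wild type the log2 ratio as deposited was 1.82 for TPO4, and at least 1.37 for RGI1 and at least 1.53 for EGO4, both at the floor in wild type. In the labelled double null over the ubp10 null it was -1.78 for TPO4, -3.96 for RGI1 and -3.40 for EGO4. The genes were picked for their level on the ubp10 null array, so the second direction was set by the choice. Each direction rests on 1 pair of arrays, and the difference was not tested. On the sir4-labelled array RGI1 was no longer called with the median ratio centred (0.88) or under cyclic loess (0.62), nor EGO4 under cyclic loess (0.78), and neither was with the floor doubled (bounds of 0.37 and 0.53). For TPO4 the second ratio was 0.29 with the spike-in ratio centred, so the directions were then no longer opposite. A further signal came from 3 ribosomal RNA control probe sets, which read 48.9, 39.3 and 27.6 units in the ubp10 null and were under 6.67 units in the wild type (2 for the 18S and 1 for the 25S RNA).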

How the results depend on the processing

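All 9 genes stayed called in the ubp10 null against wild type and against the sir4-labelled array under every alternative run, and the count lower for labelled double null over ubp10 null was 9 except with the spike-in ratio centred (8), where TPO4 turned to a log2 ratio of 0.29. The count highest on the ubp10 null array was likewise 9, with 8 on the spike-in scale. Calls on the sir4-labelled array against wild type were 4 as deposited and 2 under cyclic loess, with the floor doubled, with a ratio of 3 and with a brightness minimum of 4 times the floor, 3 with the median ratio centred, 5 with a ratio of 1.5 and 6 with the spike-in ratio centred (5 higher and 1 lower). Calls in the labelled double null against the sir4-labelled array were 1 as deposited and 0 with the floor doubled or that brightness minimum. They were 5 with a ratio of 1.5 and 6 with the spike-in ratio centred (6 higher and 0 lower). Calls in the labelled double null against wild type were between 3 and 6 (4 as deposited). With the spike-in ratio centred the shares of all genes higher and lower became 81.7% and 0.265% for labelled double null over wild type, 81.6% and 0.583% for labelled double null over ubp10 null, 63.5% and 1.26% for the sir4-labelled array over wild type, and 2.48% and 63.7% for ubp10 null over the sir4-labelled array. Lower bounds move with the floor by construction. Cyclic loess also called CIP1 lower in the labelled double null than in wild type. The cause of the other changes was not tested. No paired analysis was possible because each strain has 1 array, and no replicate could be left out. Members near the floor, as YRO2 outside the ubp10 null, have no order there.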
